A study of Mus musculus with 45 samples.

Results

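Mouse embryonic stem cells (ESCs) labelled as carrying silenced Strip2 (KD) were compared with wild-type (WT) cells after 12 days as embryoid bodies (EBs), aggregates in which ESCs form mixed differentiated tissues. All samples with the titles of these groups were taken, which gave 6 of the 45 arrays in the series, 3 for KD and 3 for WT. Of 45037 probe sets in the value table, the 34945 with a single gene symbol were used, and they stood for 18193 genes. Both groups were male ESCs of strain 129 that had been kept as hanging drops, with wild-type genotype in one and the genotype Strip2 silenced in the other. A scrambled control (SCR) of the same strain, sex, protocol and age, also 3 arrays, was used beside them, and undifferentiated ESCs and EBs of 4, 8 and 16 days from the same lines gave the time course. The labels do not say how Strip2 was silenced, how many clones stand behind each line, or whether the 3 chips of a group came from separate cultures, so p-values here reflect no more than the scatter among these arrays. Total RNA was extracted with Trizol and RNeasy Plus columns and hybridised to Affymetrix Mouse430 2.0 arrays, which read each gene mainly near its 3′ end.

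Strip2 encodes a scaffold protein of the STRIPAK complex, which holds a phosphatase and several kinases together. ESCs are kept pluripotent by a network of transcription factors centred on Pou5f1, Sox2 and Nanog, and EBs leave that state and form mesoderm, heart muscle, vessels, blood, yolk sac and liver-type endoderm, connective tissue and neural cells. Because an EB is a mixture, fewer cells of a type and less RNA per cell cannot be told apart in these values. All values below are log2 signals per array, and a difference is the KD mean minus the WT mean on that log2 scale, so that 1 is 2-fold; a gene is called where limma's adjusted p is under 0.05. No detection calls were used, so a large difference with a group at the low end of the scale is one of signals and no measured fold of RNA.

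The targeted gene did not check the KD label against WT. Strip2 read 3.84, 3.86 and 3.55 in the 3 KD-labelled arrays, 3.15, 3.23 and 2.98 in the WT arrays and 4.67, 4.88 and 4.46 in the SCR arrays. The KD-labelled arrays were all above the WT arrays and all below the SCR arrays. The difference from WT was 0.63 (SE 0.19, adjusted p = 0.0061), and the difference from SCR was -0.92 (adjusted p = 1e-04). SCR itself exceeded WT by 1.55 (adjusted p = 4.1e-07). All of these levels were low on the scale of the array, where the median signal of the 6 arrays lay between 5.05 and 5.09. The arrays are therefore called KD-labelled, and every direction given here rests on that label.

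At day 12, 9217 genes were called between the KD-labelled and WT arrays, 50.7% of those tested. Of these, 4925 were higher (27.1%) and 4292 lower (23.6%) in the KD-labelled EBs, and the median difference over all genes was 0.04. At least 2-fold changes were found for 3515 genes (19.3%), 1669 of them higher (9.17%) and 1846 lower (10.1%). Changes of over 8-fold were seen in 196 genes that were higher and 326 that were lower, and of over 32-fold in 35 and 66. All 3 KD-labelled arrays lay beyond all 3 WT arrays for 10245 genes (56.3%), above them for 5521 (30.3%) and below them for 4724 (26%). Replicate arrays correlated at 0.9897 to 0.9961 in the KD-labelled group and at 0.9898 to 0.994 in the WT group. The WT array of replicate 2 stood apart from the other WT arrays. Its mean over the 3 core pluripotency factors was 7.62, against 6.45 and 6.08, and over sarcomere genes it was 7.84, against 6.64 and 6.37. For some lists and genes the results are given with and without it. Without it 20 of 350 called list members lost their call. They include Lamc1, Foxa3, Gbp2b, Oas1a, Notch3, Rnf43, Fga, Elf5 and Hoxa2, whose lists are given no count without it.

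**Figure D1:**
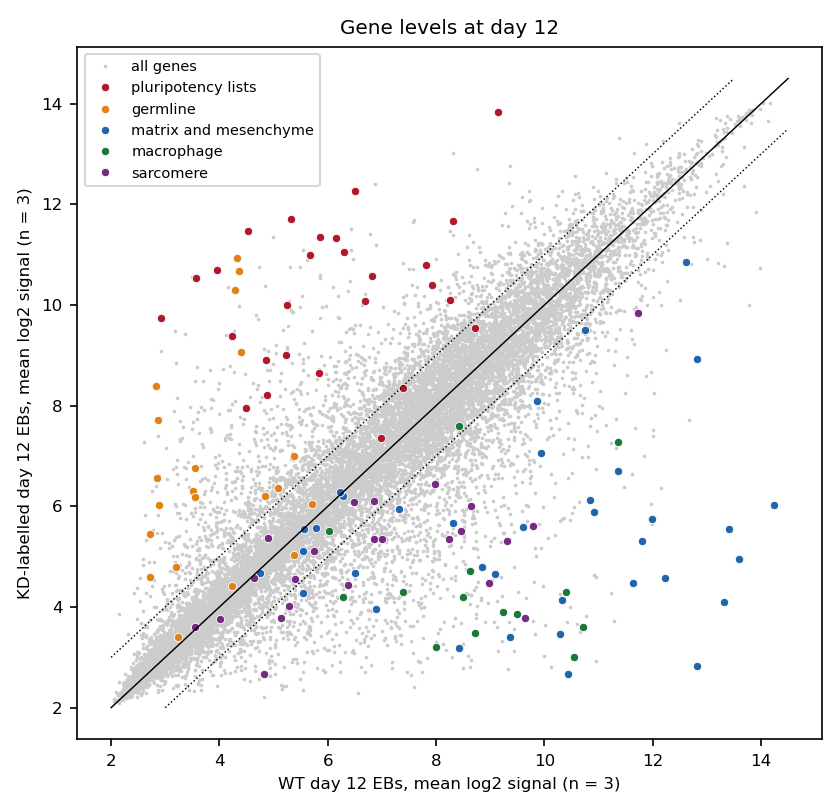
Mean log2 signal of each of the 18193 genes in the day 12 WT arrays (x axis) and the KD-labelled arrays (y axis), 3 arrays each, with members of 5 gene groups in colour, the line of equality and dotted lines at a 2-fold difference. Most pluripotency genes and many germline genes lie above the upper dotted line (Fgf4 at 3.57 in WT and 10.53 in KD-labelled EBs), and most matrix, mesenchyme and macrophage genes below the lower one (Lum at 12.81 and 2.82).

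The genes of the pluripotent state stood far above WT in the KD-labelled EBs. All 3 core factors rose, against 27.1% of all genes higher, with a median difference of 5.18. Pou5f1, the POU factor at the centre of the network, read 11.20, 11.50 and 11.32 in the KD-labelled arrays and 5.82, 6.80 and 5.85 in the WT arrays. The groups did not overlap, and the difference was 5.18 (SE 0.37, adjusted p = 1.1e-14), a 36.3-fold higher signal. In undifferentiated KD-labelled ESCs its mean was 12.01, against 11.34 at day 12. Nanog, the homeodomain factor of naive cells, read 11.09, 10.94 and 10.97 against 5.45, 6.58 and 5.01. Its difference was 5.32 (SE 0.45, adjusted p = 1.1e-12), and the SCR mean was 4.68, on the side of WT. Sox2, which ESCs share with neural progenitors, read 11.78, 11.49 and 11.73 against 8.09, 9.48 and 7.39, and the difference was 3.35 (SE 0.34, adjusted p = 1.4e-10). WT replicate 2 held the highest WT value of all 3 factors, and without that array the median difference was 5.50, with all 3 still called.

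The wider ESC lists moved with them. All 11 measured genes of naive pluripotency rose, with a median of 3.76, against 27.1% of all genes higher. All 11 had every KD-labelled array above every WT array, as had 30.3% of all genes. Zfp42 (Rex1), a marker lost when ESCs leave the naive state, read 11.81, 11.64 and 11.67 against 5.13, 6.5 and 4.33, a difference of 6.39 (SE 0.46, adjusted p = 1.6e-14). Nr0b1, a nuclear receptor of the network, differed by 6.83 and Esrrb by 5.15, while Klf5 differed by 0.84, the least of the list. Among 13 ESC-associated genes 12 rose, with a median of 4.70. Fgf4, the growth factor that ESCs make to prime themselves, read 10.45, 10.65 and 10.48 against 3.40, 3.57 and 3.73. The difference was 6.96 (SE 0.20, adjusted p = 9.4e-26), and no KD-labelled array came near a WT array. Dppa2 differed by 6.74, L1td1 by 5.74 and Dppa5a by 4.70. The exception was Dppa3 (Stella), at 7.23, 7.50 and 7.36 against 6.76, 7.35 and 6.82, where the arrays overlapped and the difference was 0.39 (SE 0.28, adjusted p = 0.26).

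**Figure D2:**
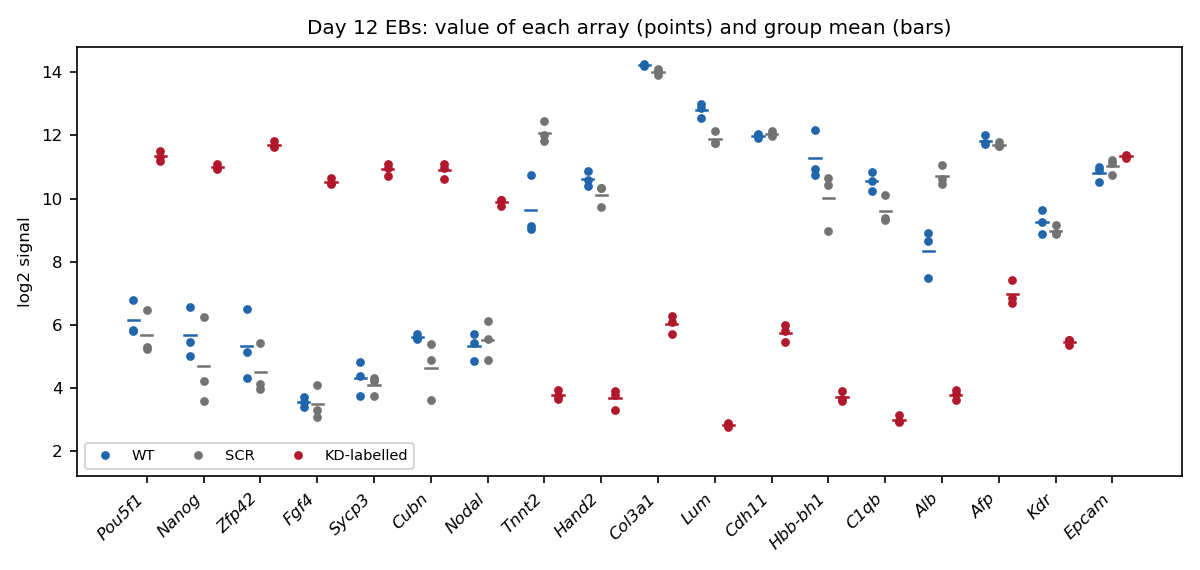
Log2 signal of each array (points) and group mean (bars) at day 12 for 18 genes in WT, SCR and KD-labelled EBs, 3 arrays a group. The pluripotency, germline and visceral endoderm genes at the left are high only in the KD-labelled arrays among these 3 groups. Nodal, next to them, is higher in the KD-labelled than in the WT arrays. The tissue genes from Tnnt2 to Kdr are low in the KD-labelled arrays, and Epcam at the far right differs little.

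Genes of the primed epiblast, the state that follows naive pluripotency, were high as well. Of 12 measured, 8 rose and 1 fell, with a median of 1.93, against 27.1% of all genes higher and 23.6% lower. Otx2, the factor that drives the naive-to-primed step, read 10.29, 10.55 and 10.29 against 5.11, 6.24 and 3.21, and its difference was 5.52 (SE 0.44, adjusted p = 2.8e-13). Its KD-labelled mean at day 12 was 10.38, against 8.03 in KD-labelled ESCs. Fgf5, the classical primed marker, read 7.45, 7.81 and 7.45 against 3.40, 3.43 and 3.13, with a difference of 4.25 (SE 0.43, adjusted p = 1.4e-10). Its mean in KD-labelled ESCs was 3.42, so it stood higher in these EBs than in the ESCs they came from (difference 4.15, adjusted p = 8.3e-10). Dnmt3b differed by 4.06 and Pou3f1 (Oct6) by 3.40. Sall2 fell by 0.91 (adjusted p = 0.0085), a call that was lost without KD-labelled replicate 1 (difference -0.74, adjusted p = 0.061).

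Among 19 measured streak and early mesoderm genes, 9 rose, 1 fell and 9 were not called, with a median of 0.39. Over all genes 27.1% were higher and 23.6% lower. Nodal, the ligand that induces mesendoderm, read 9.96, 9.77 and 9.96 against 4.84, 5.71 and 5.41, a difference of 4.58 (SE 0.24, adjusted p = 3.5e-18). Its coreceptor Tdgf1 (Cripto) read 11.50, 11.47 and 11.42 against 4.59, 5.26 and 3.70, with a difference of 6.95 (SE 0.51, adjusted p = 2.9e-14). Tdgf1 was also high in ESCs, with means of 12.49 in WT and 11.91 in the KD-labelled line. From KD-labelled ESCs to day 12 it changed by -0.44 and was not called (adjusted p = 0.5). The Nodal feedback inhibitor Lefty2 differed by 4.93 (SE 0.35). The T-box factor Eomes differed by 3.57, Lhx1 by 3.2 and Gsc, the organiser homeobox gene, by 1.64. Mesp1, which marks nascent cardiac mesoderm, was not called, with a difference of 0.04 (adjusted p = 0.9). Cdx2, a factor of posterior mesoderm and of trophoblast, fell by 1.98. The Nodal and Tdgf1 values of WT replicate 2 were the highest of their group, and both genes remained called without it.

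Germline and meiosis genes, which are normally silenced by promoter methylation in somatic tissue, supplied 4 of the 20 largest rises (Sycp3, Mageb16, Morc1 and Mael). Of 21 measured, 17 rose, 1 fell and 3 were not called, with a median of 2.72, against 27.1% of all genes higher. Sycp3, a lateral element protein of the synaptonemal complex, read 11.11, 10.72 and 10.97 against 4.37, 4.83 and 3.76, a difference of 6.61 (SE 0.31, adjusted p = 1.5e-19). Its mean was 9.15 in KD-labelled ESCs and 10.32 in WT ESCs, and the WT mean at day 12 was 4.32. Mael, a piRNA pathway protein, read 8.40, 8.43 and 8.32 against 2.91, 2.99 and 2.57, with a difference of 5.56 (SE 0.15, adjusted p = 3.1e-26). Mageb16 differed by 6.31, Morc1 by 6.01, the RNA helicase Ddx4 (Vasa) by 4.85 and Dazl by 1.28. Brdt was the member that fell, by 0.35 (adjusted p = 0.021), but another of its probe sets was called the other way. The mean of all its probe sets turned the sign, and the call was lost without KD-labelled replicate 1 (adjusted p = 0.07) or WT replicate 2 (adjusted p = 0.055).

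The promoters of this list are shown because its members moved together and many of them hold the E-box letters CACGTG, a palindrome that reads the same on both strands. In windows from 250 bases before to 50 after each start (RefSeq, GRCm38.p6), 10 of the 19 germline genes with a window held it (52.6%), against 8.09% of 27025 genes with a window. The letters GGCGGGA, searched on both strands, were in 4 of 19 (21.1%), against 12.7%. Capitals mark CACGTG in the stretch before the start of each gene, written 5′ to 3′ along the gene, on the forward strand at chr10:88459487-88459586 for Sycp3 and on the reverse strand at chr1:166238745-166238977 for Mael. In Sycp3 the matches lie 64 to 59 and 43 to 38 bases before the start, and in Mael 223 to 218 bases before it. A match describes the letters only.
Sycp3: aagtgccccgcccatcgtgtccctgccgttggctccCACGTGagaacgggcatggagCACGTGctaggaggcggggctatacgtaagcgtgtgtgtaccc
Mael: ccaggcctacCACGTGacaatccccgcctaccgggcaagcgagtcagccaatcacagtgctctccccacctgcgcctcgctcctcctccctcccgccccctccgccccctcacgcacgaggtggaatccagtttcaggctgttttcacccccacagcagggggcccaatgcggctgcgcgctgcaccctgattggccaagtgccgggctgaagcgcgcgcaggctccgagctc

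Related silencing and reprogramming lists were also higher. The shares over all genes, to be set beside their counts, were 27.1% higher and 23.6% lower. All 4 measured reproductive homeobox genes of the Rhox cluster rose, among them Rhox5 by 2.56 and Rhox6 by 2.14, and so did the 4 measured of 8 listed genes that mark 2-cell-like cells, with a median of 0.60 and Usp17la at 2.82. None of those 4 was left when dim genes were left out. Of 8 DNA methylation genes, 5 rose and 1 fell, with a median of 1.18. Dnmt3l, the cofactor of de novo methylation in germ cells and ESCs, read 10.33, 10.41 and 10.32 against 4.54, 4.08 and 3.83, a difference of 6.2 (SE 0.19, adjusted p = 7.4e-25). Tet1, which oxidises methylcytosine, differed by 3.44 and the maintenance enzyme Dnmt1 by 0.99. Dnmt3a was not called by its brightest probe set (difference -0.40, adjusted p = 0.29), while its other 4 probe sets were called, 3 lower and 1 higher, and the mean of all gave -0.76 (adjusted p = 2.8e-06). Of 12 genes of TRIM28-dependent silencing, 9 rose and none fell, with a median of 0.81. Trim28 itself differed by 0.62, the histone methyltransferase Setdb1 by 0.94, and the KRAB zinc finger genes Zfp819 and Zfp57 by 3.42 and 1.41.

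Cardiac transcription factors, each read from its brightest probe set, fell or were not called. None of 10 rose and 6 fell, against 23.6% of all genes lower, with a median of -1.03, or -0.68 without WT replicate 2. Without that array Isl1 lost its call (-0.53, adjusted p = 0.065) and Hand1 was called lower (-0.54, adjusted p = 0.012). Hand2, a bHLH factor of the heart field, read 3.78, 3.92 and 3.31 against 10.87, 10.39 and 10.58, a difference of -6.94 (SE 0.19, adjusted p = 3.1e-26). Mef2c fell by 3.44, Tbx2 by 3.31 and Tbx20 by 3.09. Nkx2-5 and Gata4 were not called, with differences of 0.08 (adjusted p = 0.82) and 0.41 (adjusted p = 0.13). By the mean of all its probe sets Gata4 was called higher (0.36, adjusted p = 0.028).

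Of 23 sarcomere genes, the proteins of the contractile filaments, 16 fell and 7 were not called, with a median of -1.53, against 23.6% of all genes lower. Cardiac troponin T (Tnnt2) read 3.64, 3.95 and 3.76 against 9.13, 10.74 and 9.04, with a difference of -5.85 (SE 0.36, adjusted p = 2.3e-16). Cardiac actin (Actc1) read 4.17, 4.35 and 4.92 against 8.50, 10.54 and 7.86, a difference of -4.49 (SE 0.49, adjusted p = 8.7e-10). The atrial myosin heavy chain Myh6 read 5.41, 5.72 and 5.36 against 7.95, 10.39 and 7.04, with a difference of -2.96 (SE 0.56, adjusted p = 2.8e-05). In all of these genes WT replicate 2 was the highest array, and every KD-labelled array was below every WT array. Without that array 14 genes fell and the median was -1.02, a move of about 1.5 times; Myh7 and Myl3 lost their calls. Titin (Ttn) was not called (difference -0.83, adjusted p = 0.18).

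The SCR arrays stood on the far side of WT for these genes. The sarcomere median of SCR minus WT was 2.8, with 21 of 23 genes called higher, and of KD minus SCR -4.53, with all 23 called lower. Over all genes 7.05% were called higher for SCR minus WT, and 24.6% lower for KD minus SCR. These comparisons share their arrays. Tnnt2, for example, had an SCR mean of 12.09, which was 2.45 above WT.

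The promoter of Actc1 is shown for the CArG box, the element of serum response factor, which was in windows of 6 of 21 sarcomere genes (28.6%) and of 1.81% of all genes with a window. None of 6 smooth muscle genes held it. The stretch lies on the reverse strand at chr2:114052876-114052975 and is written along the gene. Capitals mark the CArG box, 47 to 38 bases before the start.
Actc1: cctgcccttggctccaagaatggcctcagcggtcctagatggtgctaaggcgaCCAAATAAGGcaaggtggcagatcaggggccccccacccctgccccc

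Calcium handling and pacemaker genes did not move as a group. Of 13 measured, 3 rose and 5 fell, with a median of -0.22, against 27.1% of all genes higher and 23.6% lower. The ryanodine receptor Ryr2, the calcium release channel of heart muscle, rose against WT at 6.74, 6.64 and 6.98 and 4.60, 5.73 and 4.84, a difference of 1.73 (SE 0.30, adjusted p = 7.7e-06). Against SCR it was lower, by -0.76 (adjusted p = 0.033). Phospholamban (Pln), which inhibits the calcium pump, fell by 1.82, and the atrial peptide Nppa, listed with them, fell by 1.27. Among 10 smooth muscle genes 5 fell and none rose. Acta2 (smooth muscle actin) read 7.81, 7.19 and 8.16 against 12.73, 12.57 and 12.72, a difference of -4.95 (SE 0.32, adjusted p = 8.1e-16), and Tagln differed by -3.39. Myh11, the defining smooth muscle myosin, was not called (difference 0.12, adjusted p = 0.46).

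Mesenchyme genes were mostly lower. Of 18 mesenchyme genes 15 fell and none rose, with a median of -2.36, against 23.6% of all genes lower. Cdh11, the cadherin of mesenchymal cells, read 5.81, 5.46 and 5.99 against 11.93, 12.05 and 12.00, a difference of -6.24 (SE 0.23, adjusted p = 1.2e-22). The bHLH factor Tcf21 fell by 5.24, Snai2 (Slug) by 4.72, the PDGF receptor Pdgfrb by 4.01 and vimentin (Vim) by 3.89. Snai1, Thy1 and Prrx2 were not called, with differences of -0.06, -0.08 and -0.03. The opposite list, epithelium, moved little: 2 of 10 were called higher and none lower, with a median of 0.18. Of all genes 27.1% were called higher. Epcam, an adhesion molecule of epithelia and ESCs, differed by 0.53 (SE 0.14, adjusted p = 0.0015). Cdh1 (E-cadherin) differed by 0.53 (SE 0.20, adjusted p = 0.024), and this call was lost without KD-labelled replicates 1 or 3 or WT replicates 2 or 3, with adjusted p values of 0.06 to 0.12.

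Among 18 interstitial matrix genes 16 fell, all at least 2-fold, and none rose, against 10.1% of all genes lower by at least 2-fold. The list median was -6.67, against 0.04 over all genes. Lumican (Lum), a small proteoglycan of collagen fibrils, read 2.83, 2.76 and 2.88 against 12.88, 12.56 and 13.00, a difference of -9.99 (SE 0.18, adjusted p = 1.5e-31). It was at a mean of 3.43 in KD-labelled ESCs, so its day 12 level was not above that of undifferentiated cells. Decorin (Dcn) read 4.38, 3.82 and 4.10 against 13.45, 13.15 and 13.35, a difference of -9.22 (SE 0.17, adjusted p = 1.5e-31). The fibrillar collagen Col3a1 read 6.10, 5.70 and 6.28 against 14.25, 14.20 and 14.24, with a difference of -8.20 (SE 0.28, adjusted p = 2.4e-23), while Col1a2 fell by 8.64 and periostin (Postn) by 7.86. The WT values of Col3a1 lay next to 14.26, the highest value in the table, so its difference and rank are those of signals at the top of the scale, and saturation was not tested. For Col3a1 the KD-labelled mean was 3.96 at day 8 and 6.03 at day 12. Fibronectin (Fn1), which ESCs also make, fell by 1.78, and Col2a1 and Eln were not called (0.06 and -0.23).

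Basement membrane genes went the other way in part. Of 9 measured, 5 rose and 2 fell, with a median of 0.56, against 27.1% of all genes higher and 23.6% lower. Laminin alpha 1 (Lama1), the chain of the first embryonic basement membranes, read 10.59, 9.76 and 10.24 against 7.48, 7.54 and 7.81, a difference of 2.59 (SE 0.28, adjusted p = 4.7e-10). Col4a1 differed by 0.85 and Nid1 (nidogen) fell by 1.38. Sparc fell by 0.70, but another of its probe sets was called the other way.

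**Figure D3:**
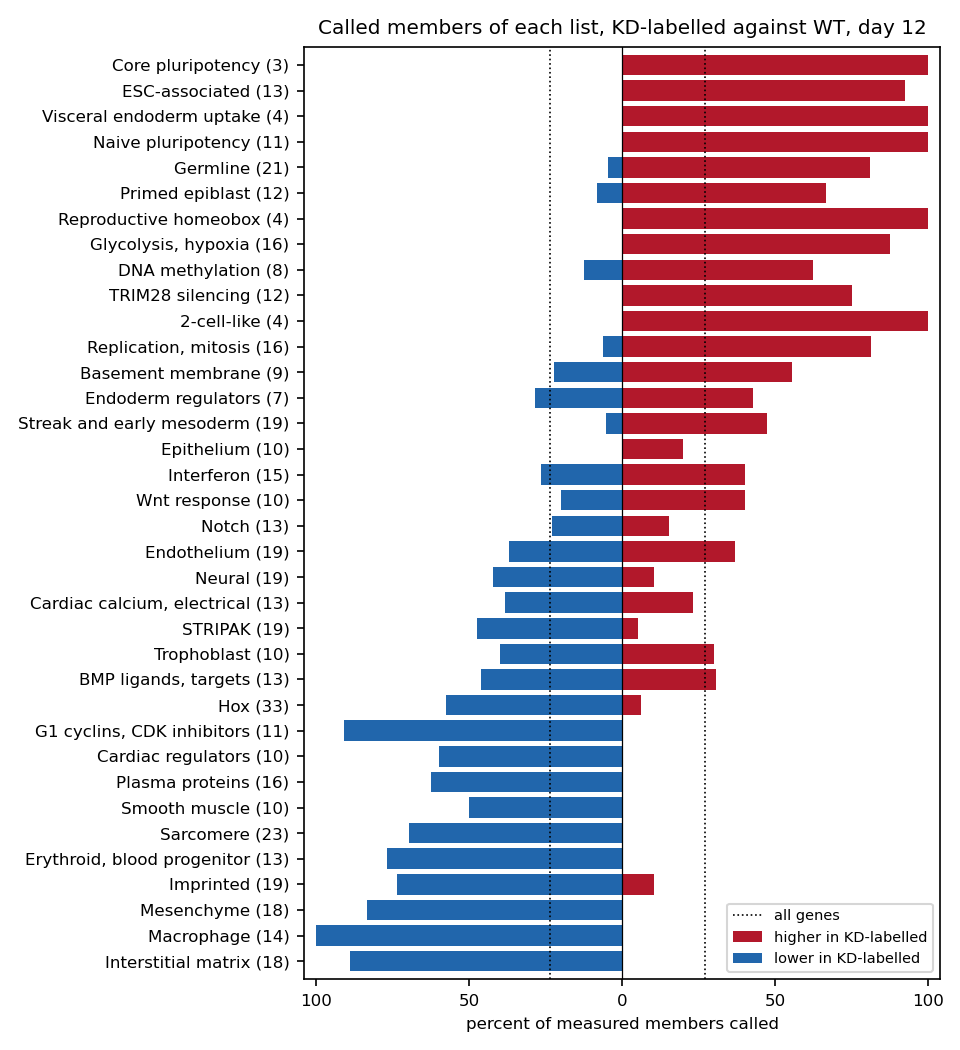
Percent of the measured members of each gene list (y axis, number measured in brackets, ordered by median difference) that were called higher (bars to the right) or lower (bars to the left) in KD-labelled than in WT EBs at day 12. Dotted lines mark the same percents over all genes, 27.1% and 23.6%. All measured core and naive pluripotency genes are called higher and all 14 macrophage genes lower.

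Vascular genes held calls in both directions, as did all genes. Of 19 measured, 7 rose and 7 fell, with a median of -0.15, against 27.1% of all genes higher and 23.6% lower. Kdr, the VEGF receptor of vascular progenitors, read 5.52, 5.51 and 5.37 against 9.27, 8.87 and 9.63, a difference of -3.79 (SE 0.20, adjusted p = 3.1e-18). The apelin receptor Aplnr fell by 4.25, endomucin (Emcn) by 3.18 and Cdh5 (VE-cadherin), the defining junction protein, by 2.13. Sox7 read 8.71, 8.02 and 8.28 against 5.26, 6.22 and 4.80, a difference of 2.91 (SE 0.34, adjusted p = 2.5e-09), Pecam1 (CD31) differed by 1.73 and the VEGF receptor Flt1 by 1.21. Pecam1 is also a surface protein of ESCs, and Sox7 is also a factor of extraembryonic endoderm. For 10 of the 19 genes the KD-labelled minus WT difference was called higher at day 12 than at day 8, against 4.04% of all genes, and for none lower; WT Kdr itself went from 10.23 at day 8 to 9.26 at day 12.

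Erythroid genes were low. Of 13 measured, 10 fell and none rose, with a median of -1.57, against 23.6% of all genes lower. The embryonic globin Hbb-bh1 read 3.66, 3.90 and 3.59 against 12.16, 10.74 and 10.95, a difference of -7.57 (SE 0.43, adjusted p = 3.6e-17). Hbb-y fell by 6.95, Hba-x by 3.29 and Alas2, the enzyme that starts haem synthesis in red cells, by 2.88. Gata1, the master regulator, was not called (difference 0.06, adjusted p = 0.82). The list median was -3.68 at day 8 and -0.11 at day 16. WT Hbb-bh1 went from a mean of 13.96 at day 8 to 11.28 at day 12 and 6.07 at day 16, while the KD-labelled means stayed between 3.58 and 4.24.

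All 14 macrophage genes fell, with a median of -4.54, against 23.6% of all genes lower. The complement protein C1qb read 2.95, 2.92 and 3.13 against 10.84, 10.25 and 10.55, a difference of -7.55 (SE 0.27, adjusted p = 5.9e-23). Tyrobp, an adaptor of myeloid receptors, fell by 7.10, the pan-leukocyte phosphatase Ptprc (CD45) by 4.80 and the growth factor receptor Csf1r by 4.09. Spi1 (PU.1), a factor of the lineage, fell by 0.52, the least of the list. At day 8 the median had been -1.30, and all 14 differences were called lower at day 12 than at day 8, against 3.03% of all genes. WT C1qb had a mean of 5.94 at day 8 and 10.55 at day 12, while the KD-labelled mean was 3.13 and 3.0.

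Endoderm genes went both ways. Of 7 endoderm factors 3 rose and 2 fell, against 27.1% of all genes higher and 23.6% lower. Sox17 differed by 2.03 and Foxa2 by 1.03, while Gata6 fell by 1.33 and Foxa1 by 3.2. All 4 uptake genes of visceral endoderm rose, with a median of 4.14. Cubilin (Cubn), the receptor through which yolk sac takes up maternal protein, read 10.97, 11.10 and 10.61 against 5.58, 5.72 and 5.56, a difference of 5.27 (SE 0.32, adjusted p = 1.8e-16). In KD-labelled ESCs its mean was 5.15, so the level of 10.89 was reached in the EBs. Its partners Lrp2 (megalin) and Amn (amnionless) differed by 4.47 and 3.81 and the adaptor Dab2 by 1.93.

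The plasma proteins made by yolk sac and liver did not follow the uptake genes. Of 16 measured, 10 fell and none rose, with a median of -1.18, against 23.6% of all genes lower. Albumin (Alb) read 3.8, 3.62 and 3.93 against 7.49, 8.66 and 8.90, with a difference of -4.57 (SE 0.23, adjusted p = 6e-19). Alpha-fetoprotein (Afp) read 6.70, 7.43 and 6.85 against 11.72, 12.02 and 11.77, with a difference of -4.84 (SE 0.41, adjusted p = 1.1e-12). Transthyretin (Ttr) read 11.89, 11.72 and 11.61 against 11.08, 11.51 and 11.40, close in both groups, and was not called (difference 0.41, adjusted p = 0.42). At day 8 the Ttr difference had been -3.39. By day 16 the list median was -4.06, and 12 of 16 differences were called higher at day 12 than at day 16, against 4.11% of all genes. WT Alb had a mean of 3.76 at day 8, 8.35 at day 12 and 12.77 at day 16, and SCR was at 10.71 at day 12.

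Alb and Afp promoters are shown because these genes lie side by side on chromosome 5 and fell together. The letters GTTAAT, part of the element of the liver factor HNF1 and searched on both strands, were in windows of 7 of 16 listed plasma protein genes (43.8%) and of 8.24% of all genes with a window. These 16 include Serpina1a, which holds the letters but was not measured here. Capitals mark GTTAAT in the stretches at chr5:90460770-90460869 (Alb) and chr5:90490599-90490713 (Afp), both on the forward strand. The match lies 32 to 27 bases before the start of Alb and 105 to 100 bases before that of Afp.
Alb: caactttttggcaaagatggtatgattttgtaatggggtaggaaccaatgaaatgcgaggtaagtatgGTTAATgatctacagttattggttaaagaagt
Afp: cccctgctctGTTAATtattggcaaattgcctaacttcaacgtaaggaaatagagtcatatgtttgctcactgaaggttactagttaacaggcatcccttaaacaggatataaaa

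Neural genes were mixed. Of 19 measured, 2 rose and 8 fell, against 27.1% of all genes higher and 23.6% lower, and 9 were not called. The list median was -0.20. Without WT replicate 2, which was the highest WT array for the list mean at 6.49 against 5.64 and 5.24, 3 rose and 4 fell. Stmn2, a tubulin-binding protein of neurons that ESCs also express, differed by 3.92 (SE 0.42, adjusted p = 4.4e-10); its KD-labelled mean was 11.51 in ESCs and 9.16 at day 12. Neurod1 differed by 1.31. Ncam1, the neural cell adhesion molecule, fell by 4.75 and Fabp7, the fatty acid binding protein of radial glia, by 3.87.

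Hox genes, which give position along the body axis, were mostly lower. Of 33 measured, 19 fell, 2 rose and 12 were not called, with a median of -0.53. Hoxc8 read 3.79, 3.34 and 3.77 against 8.92, 7.67 and 8.37, a difference of -4.69 (SE 0.23, adjusted p = 4.2e-19). The genes that rose were Hoxc13 and Hoxb13, by 2.07 and 0.66. Of 10 trophoblast genes 3 rose, among them Tfap2c (2.18) and Ascl2 (1.97), and 4 fell, among them Plac1 (-2.23) and Tpbpa (-2.01). Over all genes 27.1% were higher and 23.6% lower.

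Among the partners of Strip2 the falls were mostly small. Of 19 STRIPAK genes measured, 9 fell, 1 rose and 9 were not called, with a median of -0.30, against 23.6% of all genes lower; the member that rose was Strip2 itself. By the brightest probe set of each gene, only the kinase Stk26 fell at least 2-fold, from 10.91, 10.60 and 10.76 in WT to 8.39, 8.86 and 8.82, a difference of -2.07 (SE 0.21, adjusted p = 1.7e-10). The phosphatase, striatin and scaffold members that were called differed by less than 1 on the log2 scale. Cttnbp2 was not called by its brightest probe set (difference -0.15), but its other probe set gave a difference of -3.31 (adjusted p = 2.2e-14), and the mean of both gave -1.73 (adjusted p = 8.9e-14). Sike1 was among those with a further probe set called the other way.

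Among cell cycle genes most replication genes rose and most G1 regulators fell. Of 16 replication and mitosis genes 13 rose and 1 fell, with a median of 0.58, against 27.1% of all genes higher and 23.6% lower. Rises of at least 2-fold were found for 5 of the 16, against 9.17% of all genes. They included the mitotic kinase Bub1 (1.35) and the replicative helicase subunit Mcm3 (1.30). The one that fell was Mki67 (-0.25, adjusted p = 0.047), and its call was lost without WT replicate 2 (difference -0.09, adjusted p = 0.53) and without KD-labelled replicates 1 or 3. Of 11 G1 cyclins and CDK inhibitors 10 fell, with a median of -1.0. Cyclin D2 (Ccnd2) fell by 2.90, the inhibitors Cdkn2b (p15) by 1.76 and Cdkn1a (p21) by 1.13, and Cdkn1b (p27) was not called (difference -0.39, adjusted p = 0.088). Some other settings called Cdkn1b lower, among them the replicate block (adjusted p = 0.0076) and the mean of all its probe sets (-0.56, adjusted p = 0.045). Ccnd3, also on the list, had a further probe set called the other way.

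Glycolysis and hypoxia-response genes were higher. Of 16 measured, 14 rose, all at least 2-fold, and none fell, with a median of 1.37. Of all genes 9.17% were higher by at least 2-fold. The platelet-type phosphofructokinase Pfkp read 10.13, 10.28 and 10.24 against 6.96, 6.39 and 6.71, a difference of 3.53 (SE 0.22, adjusted p = 3.7e-16). Pdk1, which holds pyruvate out of the mitochondrial cycle, differed by 2.61 and lactate dehydrogenase A (Ldha) by 1.14. Vegfa, a target of the hypoxia-inducible factor, was not called (difference -0.19, adjusted p = 0.62). In undifferentiated ESCs Pfkp stood at 10.47 in the KD-labelled line and 10.18 in WT.

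Signalling lists held called members in both directions, as did all genes (27.1% higher and 23.6% lower), and their counts give no result about the pathways. Of 13 BMP targets 4 rose and 6 fell, with a median of -0.47, or -0.15 without WT replicate 2. Id4 rose by 2.63, while Bmp5 fell by 3.19, the pseudoreceptor Bambi by 3.12 and the inhibitory Smad6 by 1.80. Of 10 Wnt-response genes 4 rose and 2 fell, and without WT replicate 3 only 1 rose. The Wnt antagonist Dkk1 differed by 3.36 (SE 0.29, adjusted p = 3.1e-12), and Nkd1, a feedback inhibitor, fell by 2.66. Of 13 Notch genes 2 rose and 3 fell; the ligand Dll1 differed by 0.92 and the ligand Jag1 by -1.57. Of 15 interferon-response genes 6 rose and 4 fell, with Bst2 (tetherin) at 1.79 and Ifit3 at -1.93.

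Imprinted genes, which are read from 1 parental allele, fell in the main. Of 19 measured, 14 fell and 2 rose, with a median of -1.61, against 23.6% of all genes lower and 27.1% higher. Plagl1 (Zac1), a zinc finger factor that regulates other imprinted genes, read 4.76, 4.53 and 4.47 against 10.63, 11.42 and 10.83, a difference of -6.37 (SE 0.38, adjusted p = 8.5e-17). Its SCR mean was 7.41, between the groups. The Notch-like protein Dlk1 fell by 6.35, Nnat by 5.23 and the growth factor Igf2, at 10.83, 10.62 and 10.74 against 14.01, 13.87 and 14.06, by 3.25. The genes that rose were Grb10 (2.45) and Phlda2 (1.5), which both restrain growth. In KD-labelled ESCs Igf2 had a mean of 7.14, and at day 12 it was 10.73, against 13.98 in WT EBs.

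The labels call all cells male. Of the 4 genes measured among Y-linked genes and Xist, 2 fell, 1 rose and 1 was not called. Over all genes 23.6% were lower and 27.1% higher. The Y-linked gene Eif2s3y read 7.98, 7.84 and 8.25 in the KD-labelled arrays and 9.61, 9.69 and 9.37 in the WT arrays, a difference of -1.53 (SE 0.17, adjusted p = 1.2e-09). Uty read 4.76, 5.34 and 5.4 against 7.41, 7.38 and 7.03, and its difference was -2.11 (SE 0.23, adjusted p = 9.1e-10). Xist, the RNA of the inactive X, read 7.44, 6.56 and 6.87 against 4.97, 5.22 and 4.82, a difference of 1.95 (SE 0.23, adjusted p = 3.8e-09). In ESCs the differences of Eif2s3y and Uty were -1.08 and -1.22, and that of Xist was 0.17.

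The 20 largest rises and 20 largest falls hold members beyond the lists. Mymx (myomixer), a small fusion peptide of muscle, read 10.43, 10.54 and 10.70 against 3.35, 3.77 and 3.36, the largest rise at 7.06 (SE 0.30, adjusted p = 5.6e-21). Its signal was already high in ESCs, with means of 10.33 in WT and 10.72 in the KD-labelled line. From KD-labelled ESCs to day 12 it changed by -0.17 and was not called (adjusted p = 0.67). Mcf2, an exchange factor, differed by 6.32, the oocyte protein gene Ooep by 6.02, Trap1a, a tumour antigen gene of the X chromosome, by 6.36, and the paired-like homeobox gene Crxos by 6.16. Thyrotropin-releasing hormone (Trh) differed by 5.61 and the proteoglycan Srgn (serglycin) by 5.55. WT ESC means were 8.05 for Mcf2, 11.28 for Ooep, 10.92 for Trap1a, 9.34 for Trh, 5.27 for Crxos and 5.95 for Srgn. Among the falls were the ephrin receptor Epha3 (-7.34), the endothelin receptor Ednrb (-7.14), Bnc1 (-6.97), Asb4 (-6.96) and the macrophage pore protein gene Mpeg1 (-6.72). Lyz1, a lysozyme of gut and phagocytes, differed by -8.04, against -3.44 at day 8. The matrix genes Ogn, Col5a2, Col1a1 and Col6a1 fell by 7.77, 7.63, 7.15 and 6.83, and the pyrimidine enzyme gene Dpys and the zinc finger gene Zfp936 rose by 6.06 and 5.66. Dpys and Zfp936 had WT ESC means of 9.15 and 9.46. In every gene named in this paragraph the 3 KD-labelled arrays lay beyond all 3 WT arrays, which the rule for naming them required.

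The scrambled control was no copy of WT at this day. For SCR minus WT 2678 genes were called (14.7%), and for KD minus SCR 10115 (55.6%); the first count was 1448 without WT replicate 1 and 1500 without WT replicate 3. Some genes were called against WT and not against SCR; both differences from WT that follow use the same WT arrays. Apobec2, a muscle protein of the deaminase family, was 2.95 above WT in the KD-labelled arrays and 3.01 above it in SCR. Sox7 was 2.91 and 2.50 above WT, Hopx, a homeodomain-only protein of heart, 2.84 and 2.17, the slow troponin Tnnt1 2.02 and 2.18, and myoglobin (Mb) 1.80 and 2.08. On the low side stood Ifi27l2a (-3.04 and -2.56), Plac1 (-2.23 and -1.70), Serpinb6b (-2.17 and -2.03), Timp1, a metalloprotease inhibitor (-2.11 and -1.61), and S100a6 (-2.03 and -1.89). A missing call against SCR does not show equal levels.

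Other genes were called in opposite directions against the controls, with the KD-labelled mean between those of WT and SCR; single arrays overlapped with WT for Irgm2 and with SCR for Tmem140. Above WT and below SCR were Ryr2 (1.73 and -0.76), Snap91 (1.27 and -0.60), Cltrn (0.82 and -1.42), the muscle enolase Eno3 (0.76 and -0.67) and the calcitonin receptor Calcr (0.74 and -0.89). Below WT and above SCR were Tpbpa (-2.01 and 0.74), Prl2b1 (-0.88 and 0.89), Irgm2 (-0.80 and 0.69), Tmem140 (-0.79 and 0.74) and Angptl4 (-0.74 and 0.78). The calls against WT of Cltrn, Eno3, Calcr and Tmem140 were lost when single arrays were left out, in each case without WT replicate 1 (differences 0.67, 0.64, 0.70 and -0.57). Cltrn, Eno3 and Tmem140 also lost theirs without KD-labelled replicate 2 (0.60, 0.63 and -0.55), and Eno3 and Calcr without WT replicate 3 (0.63 and 0.66).

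Day 12 was then set against the neighbouring times. KD minus WT called 3355 genes in ESCs (18.4%), 7113 at day 4 (39.1%), 9084 at day 8 (49.9%) and 11053 at day 16 (60.8%). The change in the difference was tested as an interaction. From day 8 to day 12 it was called for 1286 genes (7.07%), of which 735 moved up (4.04%) and 551 down (3.03%). From day 16, day 12 differed for 1076 genes (5.91%), 748 of them higher at day 12 (4.11%) and 328 lower (1.8%). The median of the core pluripotency list was -0.26 in ESCs, 2.66 at day 4, 5.86 at day 8, 5.18 at day 12 and 4.19 at day 16.

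The 5 largest moves in each direction between day 8 and day 12 follow. Against WT, Hba-x went from -8.52 at day 8 to -3.29 at day 12, and the apolipoprotein gene Apom from -4.02 to 0.46. The protease gene Ctsh went from 0.14 to 4.46, the peptidase Dpp4 from 0.22 to 4.50 and the trypsin inhibitor Spink1 from -1.98 to 2.29. The WT means of Apom, Ctsh, Dpp4 and Spink1 fell from 9.15, 9.1, 8.44 and 11.7 to 5.64, 6.46, 5.36 and 8.61. Their KD-labelled means rose from 5.13, 9.25, 8.66 and 9.72 to 6.1, 10.92, 9.86 and 10.89. For Hba-x the WT mean fell from 12.99 to 7.74, and the KD-labelled mean was 4.47 and 4.45. In the other direction the macrophage genes C1qa, Ctss, Ms4a7 and Ms4a6d went from -0.23, -0.47, 0.09 and -0.70 to -5.34, -5.55, -4.87 and -5.53. Aspn (asporin), a matrix proteoglycan, went from -0.04 to -4.89. At day 8 the differences of these last 5 genes lay between -0.70 and 0.09, and at day 12 between -5.55 and -4.87.

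Between day 12 and day 16 the largest moves again ran both ways. The placental protease gene Ctsj went from 0.01 to -5.89, Cyp2f2 from -0.05 to -5.66 and Cym (chymosin) from -2.36 to -8.81. Serpinb9g went from 2.76 to -2.67 and Dmkn (dermokine) from 3.46 to -1.97, so the sign turned. At day 16 the SCR means of Ctsj, Serpinb9g and Dmkn were 2.37, 2.56 and 4.61, against 8.61, 8.94 and 7.58 in WT. For Cym and Cyp2f2 the SCR means were 13.31 and 8.27, against 12.94 and 8.78 in WT. The globins closed: Hbb-bh1 went from -7.57 to -1.83, Hbb-y from -6.95 to -1.43 and Hbb-b2 from -3.81 to -0.17. The red cell anion exchanger Slc4a1 went from -3.91 to 0.79 and the liver enzyme Tdo2 from -5.19 to -1.63.

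**Figure D4:**
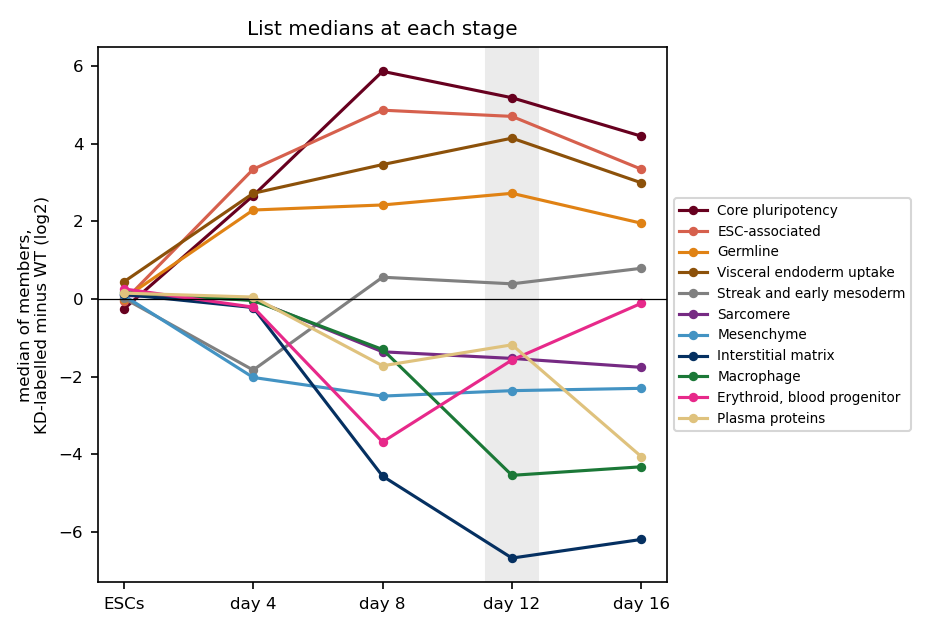
Median KD-labelled minus WT difference (log2, y axis) of 11 gene lists in ESCs and in EBs of 4, 8, 12 and 16 days (x axis), with day 12 shaded. The core pluripotency median is -0.26 in ESCs and 5.18 at day 12, the macrophage median goes from -1.30 at day 8 to -4.54 at day 12, and the erythroid median from -3.68 to -1.57.

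Genes of chromosomes 15 and 19 were shifted upward as groups in the KD-labelled arrays, an observation made after the values were seen. Among genes above the median level, the 359 on chromosome 15 had a median difference of 0.55, with 66% called higher and 12.8% lower. The 315 on chromosome 19 had a median of 0.40, with 56.2% higher and 14.3% lower. The medians of the other 18 chromosomes lay between -0.02 and 0.08, with 34.8% of 8404 genes higher and 32.2% lower. The 3 KD-labelled arrays gave 0.55, 0.61 and 0.51 for chromosome 15 and 0.40, 0.45 and 0.36 for chromosome 19. In ESCs the medians were already 0.24 and 0.16, and at day 12 SCR minus WT gave -0.20 and 0.00. Listed genes there include Dkk1, Dab2 and Hoxc13 among the rises and Acta2 among the falls, and the part of the shift in those values was not tested. Without both chromosomes 8448 of 16860 genes were called, 4341 higher and 4107 lower. The smooth muscle median was then -0.69 instead of -1.43, and 2 instead of 4 interferon genes were called lower, since Acta2, Ifit1 and Ifit3 lie on chromosome 19.

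**Figure D5:**
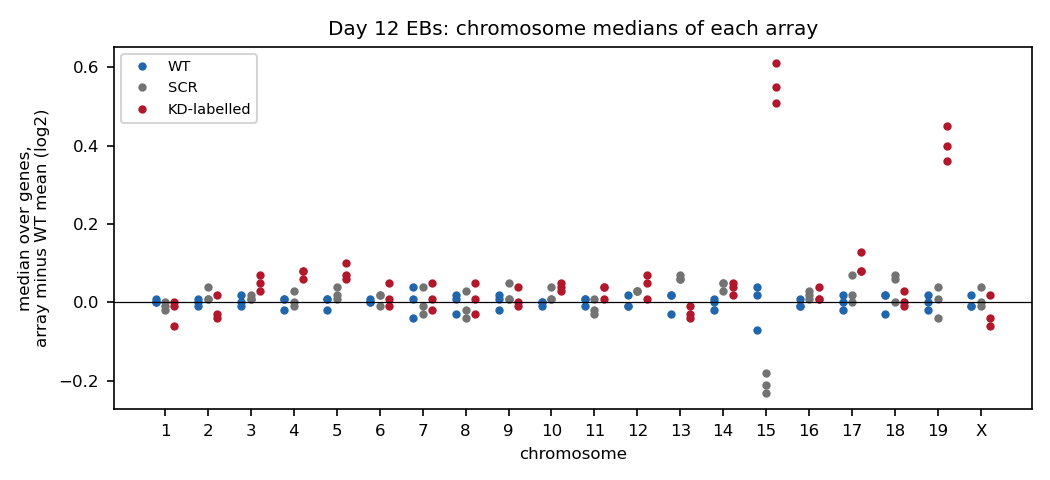
Median over the genes above the median level on each chromosome (x axis) of the array's value minus the WT mean (log2, y axis), 1 point per WT, SCR and KD-labelled array at day 12. The KD-labelled points for chromosome 15 (0.51 to 0.61) and chromosome 19 (0.36 to 0.45) lie above those of all other chromosomes.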

How the data were processed

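The deposited value table holds 1 log2 signal per probe set and array, made by the authors from Affymetrix Mouse430 2.0 scans. Affymetrix Expression Console, Partek 6.6 and RMA are named, per the submitters' processing notes, with no role or order, so background correction and scaling are known only by these names. A 3′ array has no read depth: 3 arrays a group limit the precision.

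Values were used as deposited. Of 45037 probe sets, 932 with several gene symbols and 9160 with none were left out, and symbols were updated to RefSeq GRCm38.p6 (204 probe sets had no entry). Each gene was read from its brightest probe set, by the mean of the 45 arrays. limma 3.58.1 (R 4.3.3) fitted the 15 group means over the 45 arrays, with eBayes and Benjamini-Hochberg adjustment over 18193 genes and a threshold of 0.05, and was tested on simulated data. The day 12 groups KD, WT and SCR, and the change of KD minus WT from days 8 and 16, were compared.

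Named were Strip2, the 20 largest rises and falls with non-overlapping arrays, members of the gene lists, and the 5 largest of each kind in the other comparisons, leaving out symbols made only of a clone or locus number. Members and lists were chosen with earlier results of these data known, so the lists give no independent support. Promoter windows span 250 bases before to 50 after each start. Alternatives covered normalization, dim genes, probe sets, variance model, replicate block, leaving out arrays and, added after the data were seen, leaving out chromosomes 15 and 19. Of the 526 named or listed genes, 262 have further probe sets, and in 4 one was called the other way (Brdt, Ccnd3, Sike1 and Sparc). Python 3.11.15, pandas 2.3.3 and matplotlib 3.10.9 drew the figures.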

Additional observations from a re-analysis of the deposited data

Results flagged for a closer look

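The difference between KD-labelled and WT EBs itself changed between times, by an interaction test in limma over 18193 genes. It was called for 1286 genes between day 8 and day 12, and for 1076 between day 12 and day 16. Genes whose difference was higher at day 12 than at day 8 were led by Hba-x (5.22), Apom (4.48), Ctsh (4.31), Dpp4 (4.28) and Spink1 (4.27). In each of these the WT mean was lower at day 12 than at day 8. Those whose difference was lower at day 12 were led by C1qa (-5.11), Ctss (-5.08), Ms4a7 (-4.96), Aspn (-4.85) and Ms4a6d (-4.83).

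Against day 16, the difference was higher at day 12 for Cym (6.46), Ctsj (5.91), Cyp2f2 (5.61), Serpinb9g (5.43) and Dmkn (5.43). It was lower at day 12 for Hbb-bh1 (-5.74), Hbb-y (-5.53), Slc4a1 (-4.70), Hbb-b2 (-3.64) and Tdo2 (-3.56). Each value is the KD minus WT difference at day 12 less that at the other day, on the log2 scale.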

How the results depend on the processing

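The 9217 calls of KD minus WT became 8509 to 8750 when 1 array was left out. Testing every probe set gave 16169 calls, 6028 of them at least 2-fold, and 17893 for KD minus SCR, since more features are tested. SCR minus WT gave 1448 to 3434 calls with 1 array left out. Replicate numbers do not pair the samples: same-numbered KD-labelled and WT arrays deviated with correlations of 0.07, -0.11 and -0.17. With the replicate block 9432 genes were called. Of 350 called list members, 0 to 20 were tested and lost the call in any of 15 settings, most without WT replicate 2. Members left out as dim are not in that count, and under that setting Hox falls went from 19 to 11. Brdt alone of the 350 changed sign, with the mean of all probe sets. Dim genes were those whose higher mean, of KD-labelled and WT, did not pass the median level of all genes. Leaving them out left 11 of 17 germline rises, with a median of 4.68. Genes low in WT could pass only through their KD-labelled level, so this median gives no support for the rises. The mean of all probe sets gave a primed epiblast median of 1.14 and a smooth muscle median of -0.72; the cause was not tested. The 2-fold count and the counts between times stayed within 1.5 times in the other alternatives run. The Strip2 difference (0.56 to 0.73 with 1 array left out) kept its direction and call in every setting that tested it. Strip2 was among the dim genes left out. Without detection calls no lower limit of signal was set.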
